A study of Mus musculus with 9 samples.

Results

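The 9 genes described here, Dusp6, Spry1, Spry2, Spry4, Spred1, Spred2, Etv4, Etv5 and Il17rd, are classical response and feedback genes of fibroblast growth factor (FGF) signalling. They were taken by name from the 32289 genes counted in each library, and all 9 were found in every library. Single-cell RNA-seq profiles of dissociated mouse forelimb buds were available for 9 libraries at stage E10.75 (37 to 39 somites), 3 from wild-type (Wt) embryos, 3 from EC1CRM8Δ/Δ (E1C8Δ/Δ) and 3 from EC1CRM5Δ/Δ (E1C5Δ/Δ) embryos. Both mutants are homozygous for germline Grem1 alleles that lack 4 of the 7 limb bud enhancers of Grem1, which encodes a secreted BMP antagonist, and all groups are on a Swiss Albino background. Each library holds 1 pair of forelimb buds, and the study names the 3 libraries of a genotype as biologically independent replicates. The germline deletions are present in every cell of the bud, so a change in a gated population cannot be assigned to that population alone.

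FGFs secreted by the apical ectodermal ridge, the thickened ectoderm at the tip of the limb bud, bind FGF receptors on the underlying mesenchyme and activate the RAS-ERK cascade. Among the targets of this cascade are the ETS transcription factors Etv4 and Etv5 and several inhibitors that limit the signal: Dusp6, a phosphatase that inactivates ERK, the Sprouty proteins Spry1, Spry2 and Spry4 and the Sprouty-related Spred1 and Spred2, which act between the receptor and ERK, and Il17rd (Sef), a transmembrane antagonist of the pathway. GREM1 protects the ridge from BMP activity, and ridge FGFs and mesenchymal SHH and GREM1 form a feedback loop in the limb bud.

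The promoters of Dusp6, Spry1 and Spry2 are shown as examples of members that differ along the limb axis and also in a comparison between genotypes described below. Etv5 is another such member, and its windows are not printed. Each RefSeq window runs from 250 bases before to 50 bases after the annotated start, 5′ to 3′ on the strand of the gene, at chr10:99262981-99263280 (plus strand), chr3:37639697-37639996 (plus strand) and chr14:105896770-105897069 (minus strand) of GRCm38.p6. Capitals mark GGAA and its reverse complement TTCC, the core of the motif bound by ETS factors.
Dusp6: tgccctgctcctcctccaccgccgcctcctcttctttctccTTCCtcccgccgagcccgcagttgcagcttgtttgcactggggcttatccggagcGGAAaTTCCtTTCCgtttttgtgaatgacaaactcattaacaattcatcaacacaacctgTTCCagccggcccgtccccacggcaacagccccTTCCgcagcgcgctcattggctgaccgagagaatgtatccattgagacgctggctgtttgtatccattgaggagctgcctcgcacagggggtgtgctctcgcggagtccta
Spry1: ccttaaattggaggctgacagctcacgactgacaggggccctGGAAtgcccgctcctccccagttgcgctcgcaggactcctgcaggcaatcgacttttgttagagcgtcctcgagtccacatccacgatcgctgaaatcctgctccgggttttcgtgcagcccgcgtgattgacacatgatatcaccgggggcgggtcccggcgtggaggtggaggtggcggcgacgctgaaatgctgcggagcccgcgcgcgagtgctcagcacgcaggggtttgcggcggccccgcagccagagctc
Spry2: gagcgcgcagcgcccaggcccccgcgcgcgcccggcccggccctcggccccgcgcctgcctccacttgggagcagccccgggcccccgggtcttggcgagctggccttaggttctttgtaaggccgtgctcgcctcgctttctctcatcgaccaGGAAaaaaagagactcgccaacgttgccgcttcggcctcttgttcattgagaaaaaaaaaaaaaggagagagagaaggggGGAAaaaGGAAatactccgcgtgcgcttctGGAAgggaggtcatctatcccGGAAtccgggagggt

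The core occurred 6 times in the Dusp6 window, once in the Spry1 window and 5 times in the Spry2 window. RefSeq windows were used for 7 of the 9 members, 8 windows in all since Etv5 has 2. Etv4 had none. Chromosome 18, where Spry4 lies, was left out when the member windows were taken, so no Spry4 window was examined. The core was present in 7 of these 8 windows, against 96.0% of all 32851 mouse windows, and its median number was 5 per window against 3 over all windows. The longer ETS motif CCGGAAGT was in 0 of the 8 windows and in 3.89% of all windows, and the variant CAGGAAGT in 0 of the 8 and in 3.33%. The AP-1 motif TGANTCA and the E-box CACGTG were in 0 of the 8 windows as well, against 7.81% and 7.15% of all windows. All motifs were searched on both strands, and the GGAA core overlaps both longer ETS motifs. The member windows had a median GC content of 61.3% against 52.7% over all windows, so the windows also differ in base composition.

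The members lie on 7 chromosomes of GRCm38.p6. Dusp6 (ENSMUSG00000019960) is at chr10:99263231-99267489, Spry1 (ENSMUSG00000037211) at chr3:37639947-37644599, Spry2 (ENSMUSG00000022114) at chr14:105891947-105896819 and Spry4 (ENSMUSG00000024427) at chr18:38586247-38601347. Spred1 (ENSMUSG00000027351) is at chr2:117121071-117182279, Spred2 (ENSMUSG00000045671) at chr11:19924442-20024026 and Il17rd (ENSMUSG00000040717) at chr14:27038964-27107286. The ETS genes Etv4 (ENSMUSG00000017724) and Etv5 (ENSMUSG00000013089) are at chr11:101769747-101785310 and chr16:22381313-22439570.

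Cells were assigned by marker genes that are not members. Mesenchyme was called from Prrx1, Prrx2, Pdgfra, Tbx5 and Twist1 and split on a score of distal (Cyp26b1, Sall3, Lmo2, Wnt5a) against proximal (Rarb, Irx3, Meis2, Pkdcc) markers, and ectoderm was called from Epcam, Cdh1, keratins and other epithelial genes. After removal of low-quality cells and called doublets the libraries held 592 to 8699 cells, with 141 to 2662 cells in distal mesenchyme, 223 to 3233 in proximal mesenchyme and 11 to 134 in ectoderm. The mesenchymal markers summed to between 1498 and 1880 counts per 1000000 UMIs (CPM) in the distal sums and to at most 210 CPM in the ectodermal sums, where the 12 ectodermal markers summed to between 2622 and 3289 CPM. These are the markers used to select the cells, so the sums show how well the gate separated them and are no independent check of the labels. Wt replicate 3 and E1C8Δ/Δ replicate 1 were the smallest libraries, and pairs of libraries shared at most 28 cell barcodes. All 3 Wt libraries, E1C8Δ/Δ replicate 3 and E1C5Δ/Δ replicate 2 expressed Y-linked genes, whereas Xist was high in the other 4 mutant libraries. Sex composition therefore differed between Wt and mutants but not between the mutants, and results were also computed with a term for sex.

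Grem1, the gene whose enhancers were deleted, was examined first. In distal mesenchyme it was measured at 76.9, 57.3 and 66.8 CPM in Wt replicates 1 to 3, at 28.1, 22.8 and 29.2 CPM in E1C8Δ/Δ and at 30.9, 25.3 and 34.4 CPM in E1C5Δ/Δ. Every mutant library lay below every Wt library. The mean log2 fold change of the mutants was -1.21 (SE 0.11, adjusted p = 0.00038, edgeR).

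All 9 members were higher in distal than in proximal mesenchyme, in each of the 9 libraries. The comparison asked whether the response genes differ between cells sorted by distal and proximal markers, and distance from the ridge was not measured. The test was edgeR's quasi-likelihood test on UMIs summed per library and population with the library as a block. By this test 9 of 9 members were higher distally at an adjusted p under 0.05, as were 34.1% of the 13925 genes tested. The median log2 fold change of the members was 1.47, against 0.00033 over all genes tested. Since the cells were sorted along the axis by genes measured in the same cells, the test compares cells with these marker profiles and not dissected regions.

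Spry4, a Sprouty inhibitor, had the steepest difference among the members. Its distal level was 40.1, 32.2 and 25.3 CPM in Wt, 34.0, 29.7 and 29.1 CPM in E1C8Δ/Δ and 23.2, 18.0 and 33.1 CPM in E1C5Δ/Δ. Its proximal level was between 1.77 and 4.25 CPM in the same libraries. The populations did not overlap in any genotype, and the distal level was 7.07 to 13.5 times the proximal one (log2 fold change 3.27, SE 0.08, adjusted p = 5.4e-14). In erythroid blood, which should hold little of it, Spry4 was at 0 to 1.51 CPM, below its proximal level in every library, and the ratio is not corrected for a background of that size.

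Spry1, a further Sprouty gene, was at 28.1, 29.5 and 34.3 CPM in distal Wt mesenchyme and at 6.91, 6.50 and 8.62 CPM in proximal Wt mesenchyme. Over all libraries its distal level was 3.21 to 4.93 times the proximal one, with a log2 fold change of 2.01 (SE 0.06, adjusted p = 9.1e-13). Spry2, the third Sprouty gene, was at 48.2, 29.9 and 31.5 CPM distally and at 12.9, 9.88 and 9.34 CPM proximally in Wt. Its ratio ranged from 1.98 to 3.74 and differed between genotypes, as described below (log2 fold change over all libraries 1.45, SE 0.08, adjusted p = 2.1e-10).

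The ETS transcription factor genes Etv4 and Etv5 had nearly the same difference. Etv4 was at 40.4, 40.2 and 49.8 CPM distally and at 11.7, 11.3 and 11.4 CPM proximally in Wt, with a log2 fold change of 1.86 over all libraries (SE 0.07, adjusted p = 2.5e-12). Etv5 was at 42.7, 39.7 and 36.2 CPM distally and at 11.9, 11.2 and 10.6 CPM proximally in Wt, with a log2 fold change of 1.88 (SE 0.06, adjusted p = 9.1e-13). The distal and proximal values of both genes did not overlap in Wt.

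The ERK phosphatase gene Dusp6 was at 117.9, 95.2 and 91.3 CPM distally and at 38.8, 33.7 and 22.5 CPM proximally in Wt, and its log2 fold change over all libraries was 1.47 (SE 0.08, adjusted p = 1.7e-10). For Il17rd, the transmembrane antagonist, the distal Wt values were 125.5, 109.5 and 77.8 CPM and the proximal ones 42.9, 40.4 and 35.6 CPM, with a log2 fold change of 1.46 (SE 0.05, adjusted p = 8.8e-13). The Sprouty-related genes differed least. The distal level of Spred1 was 1.27 to 1.61 times the proximal one (log2 fold change 0.55, SE 0.03, adjusted p = 1.7e-10) and that of Spred2 1.13 to 1.38 times (0.41, SE 0.02, adjusted p = 3.4e-10).

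When the mesenchymal cells were divided into 5 bins of the same score, each member was highest in the most distal bin in 9 of 9 libraries. These bins repeat the sort used for the gates, and the share of all genes with such a pattern was not computed. Etv4, Etv5, Il17rd and Spry4 rose at every step from bin 1 to bin 5 in all 9 libraries, Dusp6 in 8, Spry2 in 7, Spred1 in 6 and Spred2 in 4. Spry1 rose at every step in only 1 library. Its mean level was 9.34 CPM in bin 1, 7.81 in bin 2, 9.75 in bin 3, 19.2 in bin 4 and 42.8 in bin 5, so that its increase lay in the 2 most distal bins. Spry4 in bin 5 was 15.3 to 24.4 times its level in bin 1, Etv5 3.89 to 9.72 times and Etv4 3.39 to 10.9 times. For Spred1 and Spred2 this ratio was at most 1.77 and 1.74.

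**Figure D1:**
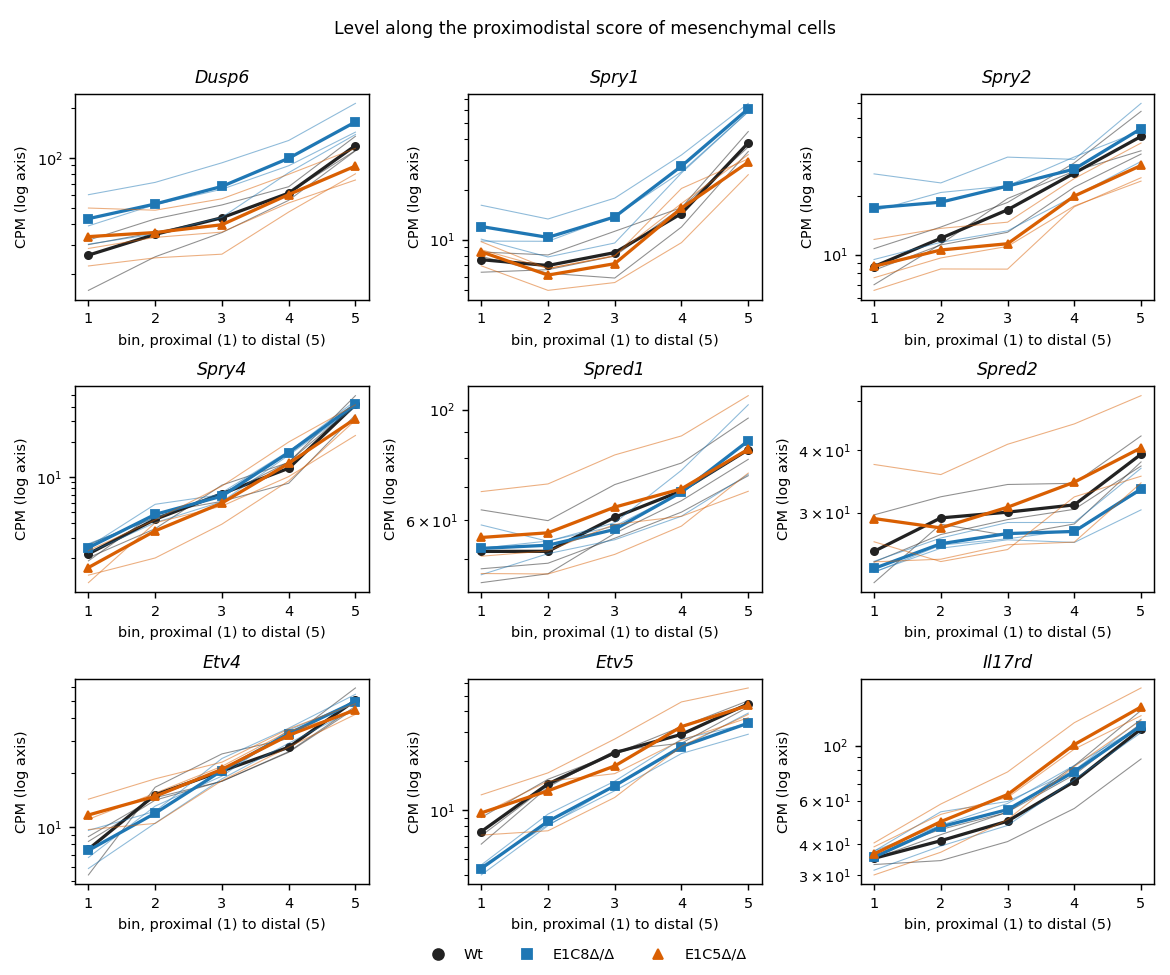
Level of each member (CPM, log axis) in 5 bins of mesenchymal cells from proximal (1) to distal (5), where thin lines are libraries and thick lines with symbols are means of 3 libraries per genotype. Every member is highest in bin 5, and Spry1 stays nearly level from bin 1 to bin 3 before it rises to a mean of 42.8 CPM in bin 5.

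The other lists of pathway genes differed in direction, and no list was tested as a set. Of 15 other FGF and ERK response genes 7 were higher and 7 lower in distal than in proximal mesenchyme, with a median log2 fold change of -0.18. Mycn, a growth-promoting transcription factor, was higher by 0.96 (SE 0.04, adjusted p = 5.7e-11), whereas the phosphatase gene Dusp10 was lower (-1.22, SE 0.12, adjusted p = 3.8e-07) and so was the fourth Sprouty gene, Spry3 (-0.85, SE 0.11, adjusted p = 8.5e-06). Of 5 FGF ligand genes tested 3 were higher distally, among them Fgf10, the mesenchymal FGF that signals to the ectoderm (1.85, SE 0.04, adjusted p = 1.7e-14). Of the 5 receptor genes 4 were lower, with Fgfr2 at -2.89 (SE 0.09, adjusted p = 1.2e-12), and Fgfr1, the main mesenchymal receptor, did not pass the test at -0.04. Among 23 genes that connect the receptor to ERK 12 were higher and 4 lower with a median of 0.07. Of 15 dissociation and immediate-early genes 11 were lower distally. The background was 34.1% of all genes tested for the higher counts and 32.8% for the lower ones.

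Compared with all mesenchyme, the ectoderm had higher levels of the Sprouty and ETS genes and lower levels of Dusp6 and Il17rd. By edgeR 6 of 9 members were higher in ectoderm and 2 lower, against 28.5% and 29.0% of the 11940 genes tested. With limma on the mean of cells 5 members were called in either direction, against 8 by edgeR, and fewer were higher. All mesenchyme includes the proximal cells, where each member was lower than in distal ones. Ectoderm was not tested against distal mesenchyme alone. In ectoderm Spry1 was measured at 59.2, 67.2 and 49.0 CPM in Wt, at 73.1, 67.5 and 67.8 CPM in E1C8Δ/Δ and at 35.4, 83.3 and 91.2 CPM in E1C5Δ/Δ, and it was higher than in mesenchyme by a log2 fold change of 1.96 (SE 0.10, adjusted p = 5.2e-15). The other Sprouty genes were also higher, Spry4 by 1.28 (SE 0.11, adjusted p = 1.9e-10) and Spry2 by 0.97 (SE 0.08, adjusted p = 4.7e-10). Etv4 was higher by 0.70 (SE 0.09, adjusted p = 9.3e-07), Etv5 by 0.43 (SE 0.11, adjusted p = 0.0015) and Spred2 by 0.35 (SE 0.09, adjusted p = 0.0014).

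Il17rd was the member with the largest deficit in ectoderm. It was at 18.0, 21.9 and 23.3 CPM in the Wt ectoderm and at 10.4 to 28.8 CPM over all 9 libraries, below the 34.3 to 50.6 CPM of proximal and the 77.8 to 154.6 CPM of distal mesenchyme. Its log2 fold change against mesenchyme was -1.90 (SE 0.09, adjusted p = 3.8e-15), and that of Dusp6 was -0.89 (SE 0.09, adjusted p = 4.4e-09). Spred1 did not pass the test (-0.14, SE 0.07, adjusted p = 0.063). The ectodermal sums of Wt replicate 3, E1C8Δ/Δ replicate 1 and E1C5Δ/Δ replicate 2 rest on 11, 13 and 14 cells. In the same ectoderm 9 of 14 other response genes were higher and 4 lower, with Etv1, another ETS gene of this subfamily, at 2.77 (SE 0.13, adjusted p = 2e-15) and the response gene Phlda1 at 2.82 (SE 0.13, adjusted p = 3.8e-15). The receptors were divided, since Fgfr2 was higher by 2.37 (SE 0.10, adjusted p = 4.5e-16) and Fgfr1 lower (-1.80, SE 0.07, adjusted p = 5.5e-17).

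Within the ectoderm, cells with high levels of the ridge genes Fgf8, Sp6, Sp8 and others could be compared with the remaining ectoderm in 3 libraries that held 14 or 15 such cells. Spry2 and Etv4 were higher in ridge cells, 2 of 9 members against 6.08% of the 8860 genes tested. Spry2 was at 47.3 CPM in the ridge cells of Wt replicate 2, at 79.8 in E1C8Δ/Δ replicate 2 and at 97.3 in E1C8Δ/Δ replicate 3, with a log2 fold change of 1.21 (SE 0.25, adjusted p = 0.00017, edgeR). Etv4 was at 45.1, 84.8 and 52.4 CPM in the same libraries (0.88, SE 0.27, adjusted p = 0.024), and without E1C8Δ/Δ replicate 2 its difference was 0.56 (adjusted p = 0.44), the highest p of 8 alternatives, of which the lowest was 0.012. By DESeq2 and by limma 1 member was called instead of 2, as it was without a filter on low counts. No E1C5Δ/Δ library held more than 3 ridge cells, so ridge levels could not be compared between genotypes.

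The members were also measured in other cells of the bud. In muscle progenitors Spry1 was between 0 and 3.55 CPM in the 9 libraries, while Etv4 was between 29.4 and 49.9 CPM and Il17rd between 22.8 and 62.6 CPM. In endothelium, which held 5 to 141 cells per library, Dusp6 lay between 53.1 and 111.8 CPM and Etv5 between 8.36 and 14.8 CPM. In erythroid blood, which should hold little of these transcripts, no member exceeded 11.2 CPM in any library. Spry1 was at 0 to 1.95 CPM in these erythroid sums, so that its range in muscle progenitors overlapped with its own range there.

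Within distal mesenchyme, cells with a higher posterior (Hand2, Osr1, Shh, Prdm1) and cells with a higher anterior (Alx4, Boc, Pax1, Sox6) marker score differed little in the members. By edgeR 5 of 9 members were lower and 1 higher in the posterior cells, against 17.9% and 21.6% of the 12641 genes tested. The largest differences were those of Spry1 (-0.22, SE 0.05, adjusted p = 0.0025) and Etv5 (-0.22, SE 0.05, adjusted p = 0.00076), followed by Il17rd (-0.19, SE 0.02, adjusted p = 1.7e-06), Dusp6 (-0.18, SE 0.03, adjusted p = 0.00016) and Spry2 (-0.15, SE 0.04, adjusted p = 0.010). Spred1 was higher by 0.06 (SE 0.02, adjusted p = 0.020). Without E1C5Δ/Δ replicate 3 neither Spry2 (-0.12, adjusted p = 0.059) nor Spred1 (0.05, adjusted p = 0.079) passed the test.

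The main genotype comparison asked whether the FGF response genes changed when the Grem1 enhancers were lost. The study reported reduced Dusp6 by RNA-FISH and lower pERK levels in the distal-most mesenchyme of both mutants. The distal gate used here was not limited to that region. Taken as the mean of both mutants against Wt, none of the 9 members passed the test in distal mesenchyme, where 3.52% of the 14013 genes did. The test compares cells alike in the gate's markers, and any cells that left the gate in a mutant are not in it. Distal cells made up 34.4% to 45.4% of the mesenchyme in Wt, 26.7% to 28.4% in E1C8Δ/Δ and 26.1% to 38.8% in E1C5Δ/Δ. No member was under an unadjusted p of 0.05 there, where 20.9% of all genes were, and none passed by DESeq2 or by limma on the mean of cells. The log2 fold changes lay between -0.23 for Spry4 and 0.16 for Spry1 and Il17rd, with standard errors of 0.09 to 0.18, and a p above the threshold does not show that the levels were equal. Likewise, 0 of 9 members passed in proximal mesenchyme (0.678% of 14901 genes), in all mesenchyme (2.23% of 16328 genes) and in ectoderm (0.0788% of 10152 genes). In these comparisons 1 member, Etv5 in all mesenchyme (-0.41, SE 0.16, adjusted p = 0.18), was under an unadjusted p of 0.05 by edgeR (19.7% of all genes there), and neither DESeq2 nor limma called a member. Without E1C5Δ/Δ replicate 3, Etv5 (-0.54, adjusted p = 0.027) and Spry4 (-0.60, adjusted p = 0.049) passed in all mesenchyme. All mesenchyme mixes distal and proximal cells, and the part of their proportions in these changes was not tested.

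Among the members, Spry1 differed most between the mutants in distal mesenchyme. It was at 28.1, 29.5 and 34.3 CPM in Wt, at 53.0, 44.6 and 44.1 CPM in E1C8Δ/Δ and at 19.4, 27.0 and 26.2 CPM in E1C5Δ/Δ. Each E1C8Δ/Δ library lay above all Wt libraries and each E1C5Δ/Δ library below all of them. Spry1 rose in E1C8Δ/Δ by a log2 fold change of 0.62 (SE 0.12, adjusted p = 0.010) and was the only member of 9 called in that comparison, against 11.5% of all genes. It remained past the threshold in all 20 alternatives of the analysis (0.54 to 0.70), with adjusted p from 0.00022 to 0.043, including the one with a term for sex (0.70, adjusted p = 0.042). In E1C5Δ/Δ the value was -0.29 (SE 0.12, adjusted p = 0.30). The difference between the mutants was 0.91 (SE 0.12, adjusted p = 0.0028).

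Dusp6 had the same order of genotypes in distal mesenchyme with more spread. Its level was 117.9, 95.2 and 91.3 CPM in Wt, 181.9, 118.9 and 112.8 CPM in E1C8Δ/Δ and 69.1, 66.4 and 101.2 CPM in E1C5Δ/Δ. All E1C8Δ/Δ libraries lay above all E1C5Δ/Δ libraries, while both mutants overlapped with Wt. Neither E1C8Δ/Δ (0.42, SE 0.17, adjusted p = 0.14) nor E1C5Δ/Δ (-0.32, SE 0.17, adjusted p = 0.46) differed from Wt by the test, but the mutants differed from each other by 0.74 (SE 0.17, adjusted p = 0.023). Of the 9 members, Spry1 and Dusp6 were called between the mutants in distal mesenchyme, against 9.76% of all genes. The difference of Dusp6 no longer passed without E1C8Δ/Δ replicate 1 (0.53, adjusted p = 0.077), E1C5Δ/Δ replicate 1 (0.69, adjusted p = 0.070) or E1C5Δ/Δ replicate 2 (0.64, adjusted p = 0.072), and over the 20 alternatives the adjusted p ranged from 0.00048 to 0.077.

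Etv5 had the reverse order. In proximal mesenchyme it was at 11.9, 11.2 and 10.6 CPM in Wt, at 6.76, 6.79 and 7.02 CPM in E1C8Δ/Δ and at 7.71, 12.5 and 15.4 CPM in E1C5Δ/Δ. The E1C8Δ/Δ libraries were tightly grouped below every other library, whereas the E1C5Δ/Δ libraries spread on both sides of Wt. Etv5 fell in E1C8Δ/Δ by 0.73 on the log2 scale (SE 0.19, adjusted p = 0.041), 1 of 9 members against 6.21% of all genes, and was lower in E1C8Δ/Δ than in E1C5Δ/Δ (-0.85, SE 0.18, adjusted p = 0.023), again 1 of 9 against 7.05%. The first of these calls was close to the threshold, since it was lost without any of the Wt or E1C8Δ/Δ replicates or without E1C5Δ/Δ replicate 2 (-0.78 to -0.70, adjusted p 0.052 to 0.15) and with the term for sex (-0.64, adjusted p = 0.20), and over the 20 alternatives the adjusted p ranged from 0.0045 to 0.20. It was also lost with limma, without doublet removal, with cells gated by Meis1 and Meis2 and with a replicate block. The second was lost without any of the E1C8Δ/Δ replicates, E1C5Δ/Δ replicate 2 or E1C5Δ/Δ replicate 3 (-0.90 to -0.65, adjusted p 0.062 to 0.10), and over all alternatives the adjusted p ranged from 0.00062 to 0.15. This second call was also lost with limma and with cells gated by Meis1 and Meis2.

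In distal mesenchyme the Etv5 level was 42.7, 39.7 and 36.2 CPM in Wt and 33.2, 25.8 and 30.5 CPM in E1C8Δ/Δ, which did not overlap, but the change did not pass the test (-0.42, SE 0.15, adjusted p = 0.084). In all mesenchyme Etv5 fell in E1C8Δ/Δ by 0.72 on the log2 scale (SE 0.19, adjusted p = 0.034; 1 of 9 members against 9.98% of all genes). This call was lost without Wt replicate 1 or 2 or any of the E1C8Δ/Δ replicates (-0.81 to -0.62, adjusted p 0.066 to 0.14) and with the term for sex (-0.70, adjusted p = 0.15). It was also lost with limma and with a replicate block. All mesenchyme held 26.7% to 28.4% distal cells in E1C8Δ/Δ and 34.4% to 45.4% in Wt. The part of this difference in the fall of Etv5 was not tested. In the same population Spry1 was the 1 member of 9 that was higher in E1C8Δ/Δ than in E1C5Δ/Δ (0.66, SE 0.15, adjusted p = 0.022; 9.97% of all genes), and it was lost without any of the E1C8Δ/Δ replicates (0.55 to 0.74, adjusted p 0.051 to 0.082). The replicate block ended this Spry1 call as well.

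**Figure D2:**
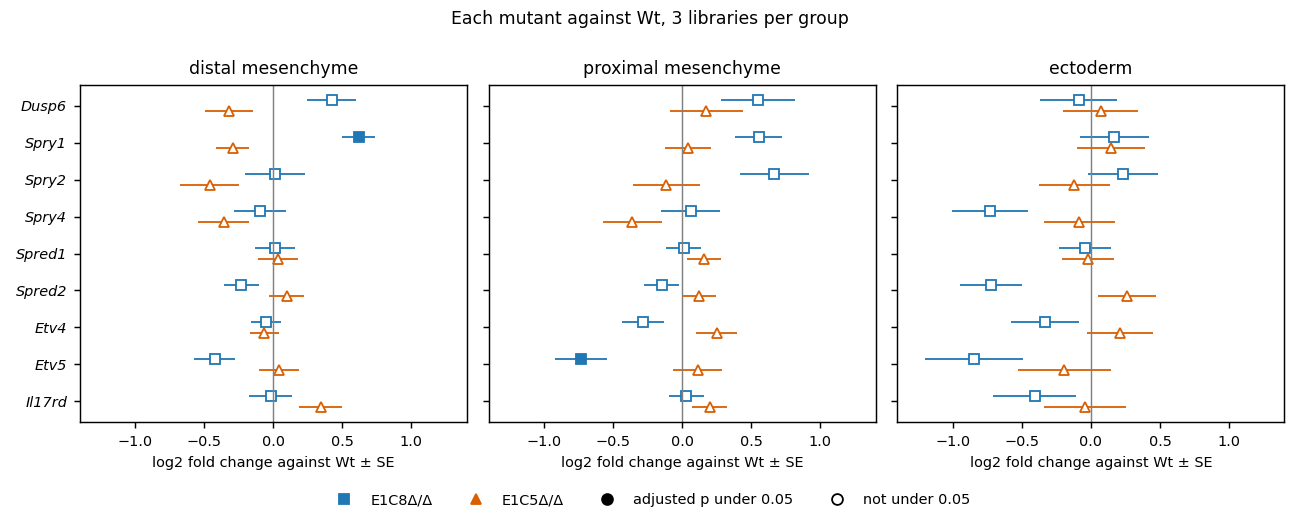
Log2 fold change of each member in E1C8Δ/Δ (squares) and E1C5Δ/Δ (triangles) against Wt, with bars of 1 standard error and filled symbols at an adjusted p under 0.05, in distal mesenchyme, proximal mesenchyme and ectoderm. Filled symbols are seen for Spry1 in distal mesenchyme (0.62) and Etv5 in proximal mesenchyme (-0.73), both in E1C8Δ/Δ.

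Of the other members, none passed the test by edgeR in distal mesenchyme, although some groups of libraries did not overlap. The share of all genes without overlap was not computed, here or for Spry1, Dusp6 and Etv5 above. Nor was it computed for the distal over proximal ratios and the shares of cells below. These orders therefore have no background. In distal mesenchyme Spred2 was at 41.1, 35.0 and 35.3 CPM in Wt and, without overlap, at 29.2, 33.3 and 31.6 CPM in E1C8Δ/Δ, but the difference of -0.23 (SE 0.13) gave an adjusted p of 0.26. Il17rd was at 111.9, 105.2 and 94.7 CPM in E1C8Δ/Δ, below its 113.0, 119.2 and 154.6 CPM in E1C5Δ/Δ, and this difference did not pass either (-0.36, SE 0.15, adjusted p = 0.16). Etv4 changed by -0.05 (SE 0.11) in E1C8Δ/Δ and -0.06 (SE 0.11) in E1C5Δ/Δ, and Spred1 by 0.01 (SE 0.14) and 0.04 (SE 0.14). In E1C5Δ/Δ no member passed in distal (2.13% of all genes), proximal (0.718%) or all mesenchyme (1.46%). By edgeR 2 members were under an unadjusted p of 0.05 in distal E1C5Δ/Δ mesenchyme, Spry1 and Il17rd (0.34, SE 0.15, adjusted p = 0.35), where 13.7% of all genes were, and 0 were in the proximal or all mesenchyme (13.4% and 14.0% of all genes). DESeq2 and limma called none of them. In the ectoderm the largest values in E1C8Δ/Δ were those of Etv5 (-0.84, SE 0.36, adjusted p = 0.65), Spry4 (-0.73, SE 0.27, adjusted p = 0.62) and Spred2 (-0.72, SE 0.23, adjusted p = 0.46), none of which passed.

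The distal excess of Spry2 differed between genotypes. Its distal level divided by its proximal level was 3.74, 3.02 and 3.37 in Wt, 1.98, 2.06 and 2.39 in E1C8Δ/Δ and 3.06, 2.48 and 2.58 in E1C5Δ/Δ. All E1C8Δ/Δ libraries were below all libraries of the other genotypes, and E1C5Δ/Δ overlapped with Wt at its highest library. As a test of the interaction, the mutant effect on Spry2 in distal minus that in proximal mesenchyme was -0.46 (SE 0.08, adjusted p = 0.0052) for the mean of the mutants, 1 of 9 members against 1.98% of all genes, and -0.62 (SE 0.10, adjusted p = 0.0048) for E1C8Δ/Δ alone, 1 of 9 against 1.28%. In E1C8Δ/Δ the proximal Spry2 level was 25.4, 18.5 and 10.78 CPM, against 12.9, 9.88 and 9.34 CPM in Wt, which overlapped at the lowest E1C8Δ/Δ library. The distal levels overlapped widely (50.2, 38.1 and 25.8 against 48.2, 29.9 and 31.5 CPM). The mean interaction was -0.36 without Wt replicate 1 (adjusted p = 0.059) and -0.42 with the term for sex (adjusted p = 0.18), and that of E1C8Δ/Δ was -0.58 with the term for sex (adjusted p = 0.049). Over the 20 alternatives the adjusted p ranged from 6.5e-10 to 0.49 for the mean and from 4.1e-13 to 0.22 for E1C8Δ/Δ, and the highest values came from limma on the mean of cells (-0.29 and -0.46). With cells gated by Meis1 and Meis2 alone they were -0.30 (adjusted p = 0.13) and -0.43 (adjusted p = 0.062).

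For Spry1 the interaction was -0.38 in E1C5Δ/Δ (SE 0.09, adjusted p = 0.026), 1 of 9 members against 2.62% of all genes. The distal over proximal ratio of Spry1 was 4.07, 4.53 and 3.98 in Wt and 3.21, 3.64 and 3.22 in E1C5Δ/Δ, without overlap. This interaction was lost without Wt replicate 2 (-0.29, adjusted p = 0.28), E1C5Δ/Δ replicate 1 (-0.36, adjusted p = 0.090) or E1C5Δ/Δ replicate 3 (-0.36, adjusted p = 0.16), and with the term for sex (-0.23, adjusted p = 0.53), which gave the highest adjusted p of the 20 alternatives (the lowest was 0.00058). It was also lost with DESeq2, with limma and with cells gated by Meis1 and Meis2.

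**Figure D3:**
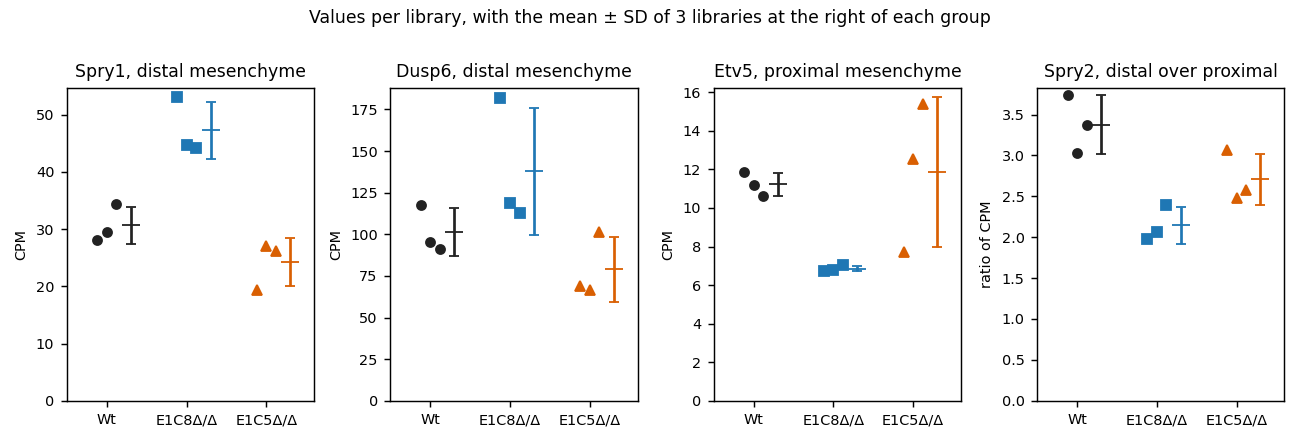
Values per library of Spry1 and Dusp6 in distal mesenchyme (CPM), Etv5 in proximal mesenchyme (CPM) and the distal over proximal ratio of Spry2, with the mean ± SD of the 3 libraries at the right of each genotype. The E1C8Δ/Δ libraries of Spry1 (44.1 to 53.0 CPM) lie above and those of Etv5 (6.76 to 7.02 CPM) below all other libraries.

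RNA of other cells and signs of cell handling were measured in the same sums. In distal mesenchyme the 12 ectodermal markers summed to 12.8 to 15.7 CPM in Wt, 14.4 to 19.0 CPM in E1C8Δ/Δ and 8.02 to 11.6 CPM in E1C5Δ/Δ, which is 0.292% to 0.597% of their level in ectoderm. At that percentage the ectodermal Spry1 level would give 0.135 to 0.402 CPM in distal mesenchyme. The 7 ridge genes summed to 6.26 to 7.86 CPM in Wt, 6.05 to 9.79 CPM in E1C8Δ/Δ and 3.80 to 4.63 CPM in E1C5Δ/Δ, and the immune markers to at most 2.72 CPM with up to 3 of 6 genes at 0. Of the ridge genes, Fgf9 was at 0.850 to 4.23 CPM there, Rspo2 at 1.38 to 3.32 CPM and Fgf8 at 0.194 to 2.22 CPM. Rspo2 was at 17.2 to 24.1 CPM in proximal mesenchyme, so the sum does not measure ridge RNA alone. The 5 muscle markers summed to 2.82, 4.61 and 2.84 CPM in Wt, to 8.68, 7.68 and 4.74 CPM in E1C8Δ/Δ and to at most 2.63 CPM in E1C5Δ/Δ, with up to 1 gene at 0. The 6 endothelial markers summed to 15.4, 18.0 and 17.9 CPM in Wt, to 22.3, 19.3 and 21.2 CPM in E1C8Δ/Δ and to 17.3 to 18.2 CPM in E1C5Δ/Δ, with no gene at 0. In both lists all E1C8Δ/Δ libraries were above all others, as for Spry1. In the muscle progenitors themselves Spry1 was at no more than 3.55 CPM. The part of ectodermal, muscle or endothelial RNA in the Spry1 differences was not tested. The erythroid and the neural crest markers overlapped between the genotypes. The 15 dissociation and immediate-early genes summed to 536, 572 and 530 CPM in distal Wt mesenchyme, to 645, 806 and 528 CPM in E1C8Δ/Δ and to 375, 356 and 388 CPM in E1C5Δ/Δ. All E1C5Δ/Δ libraries were thus below the others in this list, as for Spry1, whereas for Dusp6 they were below E1C8Δ/Δ and overlapped with Wt. In this list 5 of the 15 genes were higher in E1C8Δ/Δ than in E1C5Δ/Δ with a median of 0.67. The part of these lists in the differences of Spry1 and Dusp6 was not tested. In these sums fewer expressing cells and less RNA per cell cannot be told apart.

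The share of distal cells with a UMI of each member was also computed after each cell had been thinned to 10000 UMIs, which left out the shallower cells, 117 in Wt, 199 in E1C8Δ/Δ and 136 in E1C5Δ/Δ. Few UMIs of most members fall in 10000, so the share depends on the mean level. For Dusp6, where it reached 77.6% of cells, the share need not follow the mean in proportion. Fewer expressing cells and less RNA per cell cannot be told apart by it either. Spry1 was detected in 21.2%, 21.3% and 24.6% of Wt cells, in 32.8%, 31.9% and 32.1% of E1C8Δ/Δ cells and in 15.04%, 20.8% and 21.5% of E1C5Δ/Δ cells. All E1C8Δ/Δ libraries were above all Wt libraries, and E1C5Δ/Δ overlapped with Wt. Dusp6 was detected in 61.8%, 55.1% and 55.2% of Wt cells, in 77.6%, 65.4% and 61.9% of E1C8Δ/Δ cells and in 45.1%, 43.4% and 60.0% of E1C5Δ/Δ cells, so that the lowest E1C8Δ/Δ library was just above the highest of Wt. The test of these shares took both mutants together, which differ in direction for Spry1 and Dusp6, and the shares of each mutant alone were not tested. For the mutants together Dusp6 was detected in 58.9% ± 12.9 (SD, n = 6) of cells against 57.4% ± 3.82 (SD, n = 3) in Wt (exact permutation test over libraries, two-sided, p = 0.86), and Spry1 in 25.7% ± 7.55 against 22.4% ± 1.93 (exact permutation test, p = 0.40). Over the 9 members compared the exact p ranged from 0.19 for Etv4 to 0.86 for Dusp6, where 0.012 is the smallest p this design allows. In erythroid cells thinned to 10000 UMIs, which should hold little of these transcripts, the median share of a member over libraries was between 0.495% and 4.08%, and this was taken as the background. When cells were thinned to 5000 UMIs the exact p ranged from 0.18 for Spry4 to 0.96 for Spred1, the difference of the mutants from Wt went from 3.33 to 0.56 percentage points for Spry1, and that of Etv4 from 2.63 to -0.16. The Spry1 share was then 12.1%, 13.3% and 16.1% in Wt, 17.0%, 17.3% and 17.8% in E1C8Δ/Δ and 8.46%, 14.0% and 11.8% in E1C5Δ/Δ, so that E1C8Δ/Δ was again above Wt in all libraries. Without thinning, Spry1 was detected in 46.9% to 60.7% of Wt, 47.5% to 58.2% of E1C8Δ/Δ and 49.4% to 53.7% of E1C5Δ/Δ cells, which overlapped. Dusp6 was then detected in 88.5% of Wt and 86.1% of mutant distal cells. The median depth of distal cells was 17881 and 26246 UMIs in E1C8Δ/Δ replicates 2 and 3. In all other libraries it was 32308 to 56749 UMIs, and the shares without thinning are not corrected for depth.

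Other FGF pathway genes were tested in the same fit of distal mesenchyme. For the mean of the mutants 1 of 15 other response genes rose, Mycn (0.65, SE 0.14, adjusted p = 0.031), and 1 fell, Phlda1 (-0.39, SE 0.09, adjusted p = 0.035). Of 6 ligand genes 2 fell, Fgf9 (-1.33, SE 0.17, adjusted p = 0.0019) and Fgf18 (-1.03, SE 0.15, adjusted p = 0.0055), and of 5 receptor genes 1 fell, Fgfr1 (-0.49, SE 0.08, adjusted p = 0.011). These counts stand beside the 3.52% of all genes called in that comparison. Fgf9 is also one of the 7 ridge genes, whose sum was lower in E1C5Δ/Δ than in Wt distal mesenchyme, so that sum is not independent of Fgf9. Its own level was 0.850 to 4.23 CPM in distal mesenchyme and 2.33 to 20.9 CPM in ectoderm over all libraries. The part of ridge RNA in its difference was not tested. None of the 23 transduction genes passed the test by edgeR. Phlda1 was lower in E1C5Δ/Δ than in Wt (-0.81, SE 0.10, adjusted p = 0.0029) and higher in E1C8Δ/Δ than in E1C5Δ/Δ (0.84, SE 0.11, adjusted p = 0.0028), the same direction as Spry1 and Dusp6 between the mutants. In proximal mesenchyme Mycn was the gene of these lists that rose (0.66, SE 0.11, adjusted p = 0.019).

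Across 55 sums of 7 cell populations in the 9 libraries, centred per library, the members fell into different patterns. The closest pairs were Etv4 with Etv5 (Pearson r = 0.79) and Spry1 with Spry4 (0.77), and the least alike were Spry1 with Il17rd (-0.22). Among 9922 genes with a mean of at least 5 CPM, Il17rd was most like Grem1 (0.91), Frzb (0.91) and Cdh11 (0.90). Spry1 was most like the glycolytic genes Pfkl (0.92) and Tpi1 (0.90), followed by Arl13b (0.89), and Dusp6 was most like Laptm4b (0.89), Cbfa2t3 (0.88) and Pdzd2 (0.87). Spry4 was most like Galk1 (0.89), Spry2 like Vav2 (0.84), Spred1 like Wipi1 (0.85) and Spred2 like Plekhm3 (0.69). These correlations describe the cell populations, since sums of 1 library share its cells and depth, and no p is given.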

How the data were processed

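The deposited files hold raw UMI counts per gene and cell barcode. Per the labels and the study's methods, pairs of forelimb buds were dissociated with collagenase D, run on 10x Genomics 3′ v3.1 chemistry and counted by the authors against mm10. The submitters' processing notes name Cell Ranger 6.0.1 and Seurat 4.3.0.1, and the deposited counts precede the authors' cell filters. Total UMIs per library ranged from 26620760 to 500559729.

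Cells with over 2500 genes, under 200000 UMIs and under 10% mitochondrial UMIs were kept. Doublets were called per library by simulated neighbours (scikit-learn 1.9.0) at 0.8% per 1000 barcodes, 1.99% to 22.8% of cells. Markers gated the cell types. Mesenchymal cells with a standardized distal marker score above 0 and a proximal score below 0 were distal, the reverse proximal and all others intermediate, and 12.2% to 16.1% of mesenchymal cells lay within 0.1 of a limit. The 5 bins divide the distal minus proximal score with libraries weighted alike. Libraries with at least 10 cells of a population were used. UMIs were summed per library and population and tested with edgeR 4.0.16 (R 4.3.3; quasi-likelihood, TMM, filterByExpr, Benjamini-Hochberg over all genes tested, adjusted p under 0.05), and the script was tested on simulated data. DESeq2 1.42.0 and limma 3.58.1 (on the mean of cells) were alternatives. Genes on X and Y, transgene features and the gates' own markers were left out of the tests. CPM is per 1000000 UMIs of the sum.

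Other alternatives changed the filters, gate or doublet removal, added a term for sex or a replicate block, or left out 1 library. The members and lists were chosen with earlier results of these data known. Named genes are the members, Grem1, the 3 genes most like each member, and list genes with the largest changes.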

Additional observations from a re-analysis of the deposited data

Results flagged for a closer look

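The 7 values given here compare the effects of the mutants with each other, or a mutant effect in distal with that in proximal mesenchyme. Each passed its own test by edgeR at an adjusted p under 0.05. Between the mutants 9.76% of all genes did so in distal, 9.97% in all and 7.05% in proximal mesenchyme. For the distal minus proximal effect the share was 1.98% for the mean of the mutants, 1.28% for E1C8Δ/Δ and 2.62% for E1C5Δ/Δ.

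Between E1C8Δ/Δ and E1C5Δ/Δ distal mesenchyme, Spry1 differed by 0.91 (SE 0.12, adjusted p = 0.0028) and Dusp6 by 0.74 (SE 0.17, adjusted p = 0.023), both higher in E1C8Δ/Δ. In all mesenchyme Spry1 differed by 0.66 (SE 0.15, adjusted p = 0.022) in the same direction. Etv5 differed in the opposite direction in proximal mesenchyme, by -0.85 (SE 0.18, adjusted p = 0.023). The Dusp6 difference no longer passed without E1C8Δ/Δ replicate 1, E1C5Δ/Δ replicate 1 or E1C5Δ/Δ replicate 2 (adjusted p 0.070 to 0.077), the Spry1 difference in all mesenchyme without any one of the E1C8Δ/Δ replicates or with the replicate block (0.051 to 0.082), and the Etv5 difference without any one of the E1C8Δ/Δ replicates, without E1C5Δ/Δ replicate 2 or 3, with limma and with the Meis gate (0.062 to 0.15). The Spry1 difference in distal mesenchyme passed in all 20 alternatives. Sex composition was the same in both mutants, with Xist high in 2 of 3 libraries each. The dissociation and immediate-early genes had the same order as Spry1 and Dusp6 in distal mesenchyme, with sums of 645, 806 and 528 CPM in E1C8Δ/Δ and 375, 356 and 388 CPM in E1C5Δ/Δ, and their part in these differences was not tested.

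The effect of the mutations differed between distal and proximal mesenchyme for Spry2, by -0.46 for the mean of the mutants (SE 0.08, adjusted p = 0.0052) and by -0.62 for E1C8Δ/Δ (SE 0.10, adjusted p = 0.0048). For Spry1 it differed by -0.38 in E1C5Δ/Δ (SE 0.09, adjusted p = 0.026). The mean Spry2 value no longer passed with limma, the Meis gate, the sex term or without Wt replicate 1 (adjusted p 0.059 to 0.49), and that of E1C8Δ/Δ with limma or the Meis gate (0.062 to 0.22). The Spry1 value no longer passed with DESeq2, limma, the Meis gate or the sex term, or without Wt replicate 2, E1C5Δ/Δ replicate 1 or E1C5Δ/Δ replicate 3 (0.090 to 0.53). The causes of these differences were not tested.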

How the results depend on the processing

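The higher distal levels of all 9 members passed the test in all 18 alternatives run. Reversed directions of called values were not seen in any alternative. In the following, values are the numbers of members called out of 9.

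Ectoderm against mesenchyme gave 6 higher members and 3 with limma. Ridge cells gave 2, and 1 each with DESeq2, without a filter on low counts and with limma; the alternative of at least 20 cells was not run because fewer than 2 libraries were left. In posterior distal cells, 1 member was higher, and 0 without a filter, with limma, without doublet removal, with over 1000 genes per cell, with the stricter gate and with the Meis gate, and 0 to 1 on leaving out 1 library. The 5 lower members became 3 with limma and 4 to 6 on leaving out 1 library.

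For the mean of the mutants in all mesenchyme, leaving out 1 library gave 0 to 2. For E1C8Δ/Δ against Wt in distal mesenchyme the 1 call became 2 with DESeq2 and without a filter, and 1 to 2 on leaving out 1 library. In proximal mesenchyme the 1 call became 3 with DESeq2 and without a filter, 0 with limma, without doublet removal, with the Meis gate and with the sex term, and 0 to 1 on leaving out 1 library. In all mesenchyme the 1 call became 0 with limma and with the sex term, and 0 to 1 on leaving out 1 library.

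Between the mutants, the 2 distal calls became 1 to 3 on leaving out 1 library. The 1 proximal call became 4 with DESeq2, 3 without a filter, 0 with limma and with the Meis gate, 2 with the stricter gate and with the sex term, and 0 to 2 on leaving out 1 library. The 1 call in all mesenchyme became 2 with DESeq2 and without a filter, and 0 to 2 on leaving out 1 library. In ectoderm 0 became 1 without a filter.

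The 1 interaction of the mean became 2 without a filter, 0 with limma, with the Meis gate and with the sex term, and 0 to 1 on leaving out 1 library. For E1C8Δ/Δ alone it became 0 with limma and with the Meis gate. For E1C5Δ/Δ alone it became 0 with DESeq2, limma, the Meis gate and the sex term, 4 without a filter, 2 with the stricter gate, and 0 to 3 on leaving out 1 library.

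Same-numbered libraries had correlated deviations of -0.14 to 0.069, so the numbers were not taken as pairs. Libraries with different numbers had values of -0.14 to 0.25, the highest for Wt replicate 1 with E1C5Δ/Δ replicate 3. Whether such libraries shared a batch was not tested, and the replicate block does not model it. With a replicate block the call for E1C8Δ/Δ in proximal and in all mesenchyme became 0, that between the mutants in all mesenchyme 0, and the E1C5Δ/Δ interaction 3.

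Over all genes, the 493 calls for the mean of the mutants in distal mesenchyme were 886 with DESeq2, 782 without a filter, 206 with limma, 266 with the block, 53 with the sex term and 198 to 912 on leaving out 1 library. In proximal mesenchyme the 101 calls were 524, 369, 25, 30, 1 and 29 to 408 under the same settings, 63 with over 1000 genes per cell and 246 with the Meis gate. In all mesenchyme 364 were 1020 with DESeq2, 109 with limma, 89 with the block, 4 with the sex term and 101 to 867 on leaving out 1 library. In ectoderm 8 were 3 with DESeq2, 77 without a filter, 0 with limma, the sex term or at least 20 cells, and 0 to 20 on leaving out 1 library. The 296 interactions were 724 without a filter, 64 with limma, 139 with the Meis gate, 45 with the sex term and down to 167 on leaving out 1 library. The 847 ridge calls were 420 with DESeq2 and 516 without Wt replicate 2, and the 4987 posterior against anterior calls 2858 with limma. The shares of all genes given for each mutant moved as well. In distal mesenchyme the 1608 calls for E1C8Δ/Δ ranged over the alternatives from 271 with the sex term to 2029 (851 with limma), the 298 for E1C5Δ/Δ from 83 with the sex term to 547 without a filter (152 with limma), and the 1368 between the mutants from 370 without E1C8Δ/Δ replicate 2 to 1775 (785 with limma). In proximal mesenchyme 926, 107 and 1050 calls in the same order ranged from 43 to 1447, 2 to 376 and 151 to 1535, in all mesenchyme 1629, 238 and 1628 from 187 to 2299, 14 to 613 and 372 to 2342, and the interactions, 192 for E1C8Δ/Δ and 393 for E1C5Δ/Δ, from 39 to 642 and 77 to 772. The cause of these shifts was not tested. The ectodermal sums of 3 libraries held 11 to 14 cells.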

Other observations

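In the intermediate mesenchyme, which was neither distal nor proximal by its scores, the level of 7 members lay between the distal and the proximal level in 9 of 9 libraries, that of Spred1 in 8 and that of Spred2 in 7. This order partly follows from the sort by the same scores, and its share over all genes was not computed. The intermediate level of Dusp6 was 54.4, 45.5 and 38.2 CPM in Wt, 96.3, 69.5 and 52.6 CPM in E1C8Δ/Δ and 29.7, 39.0 and 60.5 CPM in E1C5Δ/Δ, and that of Spry4 was 4.76 to 11.4 CPM over the 9 libraries. Immune cells, of which there were 1 to 45 per library, had Spry2 at no more than 3.75 CPM and Etv4 at no more than 7.81 CPM. Etv5 reached 70.3 CPM in Wt replicate 3 (4 cells) and was at 0 in E1C8Δ/Δ replicate 1 (1 cell). Both libraries held fewer immune cells than the minimum of 10 used in the tests.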
